A study of Mus musculus with 16 samples.

Results

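Collagen chain genes encode the alpha chains that fold in threes into collagen, the main structural protein of the extracellular matrix. The 44 of 54052 entries of the count table described here were chosen by symbol alone, as every entry named Col, a number, a and a number. By textbook class they are 11 fibrillar chains, 6 basement membrane network chains, 3 short-chain network chains, 6 beaded filament chains, 9 FACIT chains (fibril-associated collagens with interrupted triple helices), 4 transmembrane chains, 2 multiplexins and 3 anchoring fibril or other chains. Counts of 41 of them passed a filter on low values and were tested. The other 3, Col6a5, Col10a1 and Col28a1, reached at most 0.650 CPM (counts scaled to a common library size, as defined by edgeR) in all 16 libraries.

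All libraries came from ES-E14TG2a, a mouse embryonic stem cell line with genotype tag WT, and every group carried a hairpin: either shBeclin1, aimed at the autophagy gene Becn1, or shNT, taken here as its control. There were 2 libraries for each hairpin in each of 4 cultures: undifferentiated cells at day 0, embryoid bodies at day 4, day 10 cells labelled CM (cell type tag cardiomyocyte), and day 10 cells labelled CM without GF. The study asked how Beclin1 knockdown acts on differentiation towards cardiac cells, per its design text. The labels do not spell out GF, tag the tissue of every library, stem cells included, as heart, do not say whether the 2 libraries of a group came from separate cultures or from 1 hairpin clone, and carry a batch tag that repeats the group. P-values therefore measure only the spread between the libraries of a group, which may be technical, and batch and group cannot be told apart.

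As background, fibrillar chains build the rope-like fibrils of connective tissue, with types I and III abundant in the heart's interstitium and types II and XI typical of cartilage. Type IV chains form the sheet-like network of basement membranes, on which endothelium, epithelium and each cardiomyocyte rest. FACIT chains decorate fibril surfaces, type VI forms beaded microfilaments around cells, and each collagen type is a trimer of 1 gene's chains or of a set of partner chains.

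Library totals ran between 14967744 and 21422980 counts, of which collagen chains took 0.0284% to 0.758%. Becn1, the targeted gene, stood at 36.2 and 39.9 CPM in shBeclin1 against 89.2 and 85.1 CPM in shNT at day 0, and the gap was smallest without GF, at 42.7 and 45.2 CPM in shBeclin1 against 63.4 and 60.8 CPM in shNT. Its log2 folds of -1.20, -1.01, -0.69 and -0.50 in day 0, day 4, CM and without-GF cultures were all called lower (edgeR adjusted p at or below 5.174e-07); 43.9% of its exon length is shared with overlapping genes. The cell type label of the day 10 shNT cells went against their defining markers: 9 cardiomyocyte markers summed to 4701 to 5099 CPM in shBeclin1 CM libraries but to 54.7 to 62.3 CPM in shNT CM libraries, and to 3402 to 6361 CPM in shBeclin1 against 54.8 to 59.6 CPM in shNT without GF. All 9 were called higher in shBeclin1 in both cultures, and Nkx2-5 was at 0 in shNT without GF. Replicates agreed least in the shBeclin1 libraries without GF and in the shNT libraries of day 0, with median absolute log2 differences over genes of 0.155 and 0.187, against 0.11 to 0.123 in the other 6 groups.

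Collagen transcripts were scarce in stem cells and embryoid bodies and abundant at day 10. Their summed level was 296 ± 11.5 CPM at day 0, 479.6 ± 1.84 CPM at day 4 and 7510.1 ± 168 CPM at day 10 in shBeclin1 CM cells (mean ± SD, n = 2 at each time). In shNT it was 315 ± 9.57, 389 ± 10.8 and 6662 ± 281 CPM at the same times, so the day 10 libraries held far more collagen RNA than any earlier library under both hairpins. Without GF the sum reached 5646 ± 171 CPM in shBeclin1 and 3812 ± 9.4 CPM in shNT. These are bulk libraries, in which fewer cells of a type and less RNA per cell cannot be told apart.

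**Figure D1:**
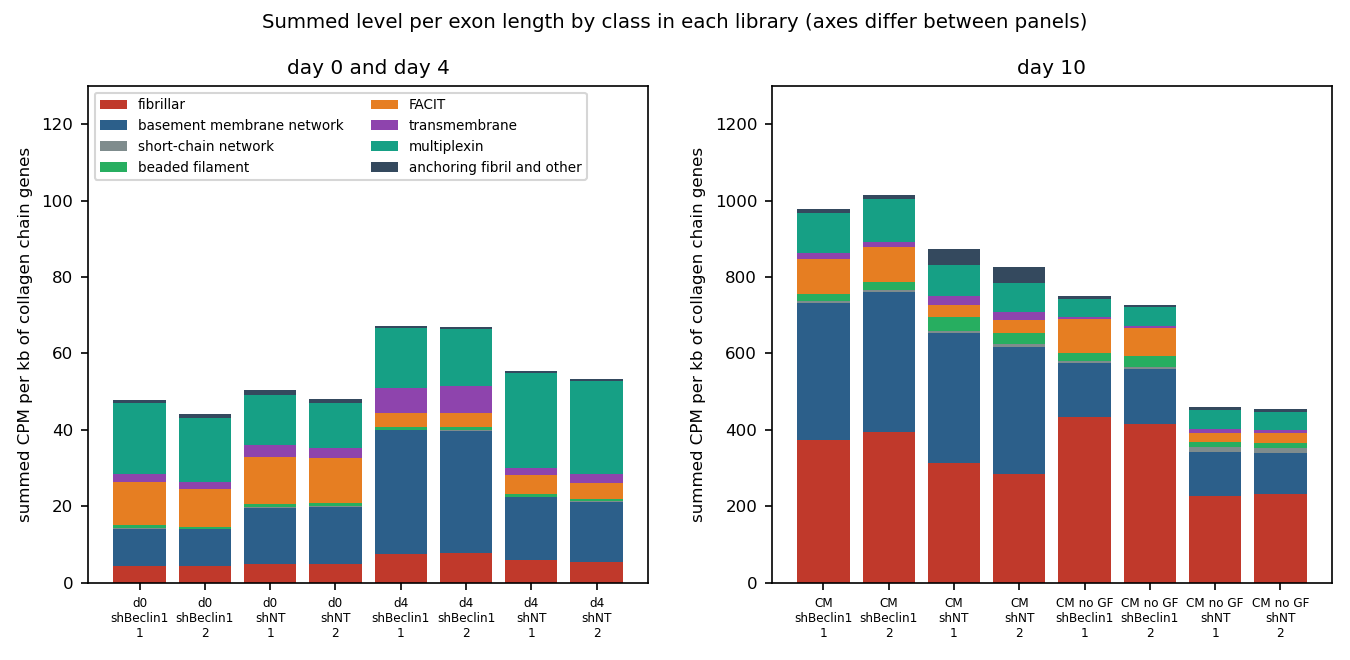
Summed level of the collagen chain genes in each of the 16 libraries, as CPM per kilobase of exon, stacked by class; the left panel holds day 0 and day 4 and the right panel day 10, on axes of different range. The sums at day 10 are many times those at day 0 and day 4, and fibrillar and basement membrane network chains make up most of them.

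Per exon length the make-up of the collagen RNA changed with time. Multiplexins, nearly all Col18a1, made up 38.3% in shBeclin1 and 25.2% in shNT at day 0 (CPM per kilobase of merged exons, mean of 2 libraries), and basement membrane network chains 21.2% in shBeclin1 and 29.8% in shNT. At day 4 the basement membrane network chains held 48.2% in shBeclin1 and 29.6% in shNT, and multiplexins 22.8% in shBeclin1 and 45.5% in shNT. In day 10 CM cells fibrillar chains held 38.5% in shBeclin1 and 35.1% in shNT, and basement membrane network chains 36.3% in shBeclin1 and 39.6% in shNT. Without GF fibrillar chains held 57.3% in shBeclin1 and 50.01% in shNT, and basement membrane network chains 19.5% in shBeclin1 and 24.5% in shNT. The leading chain per length was Col18a1 in both day 0 groups and in shNT at day 4, and Col4a1 in shBeclin1 at day 4 and in both CM groups. Without GF it was Col1a1 in shBeclin1, at 243 CPM per kilobase, and Col3a1 in shNT, at 77.6 CPM per kilobase. Neighbours in this order were often close: in shNT without GF, Col1a1 (42.01 CPM per kilobase), Col1a2 (41.8) and Col4a2 (41.3) lay within the spread of their libraries. Merged exons take in every annotated exon of a gene and can be longer than the transcripts present. Shares, orders and ratios per length between genes are therefore approximate, while a ratio compared between groups uses the same lengths.

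**Figure D2:**
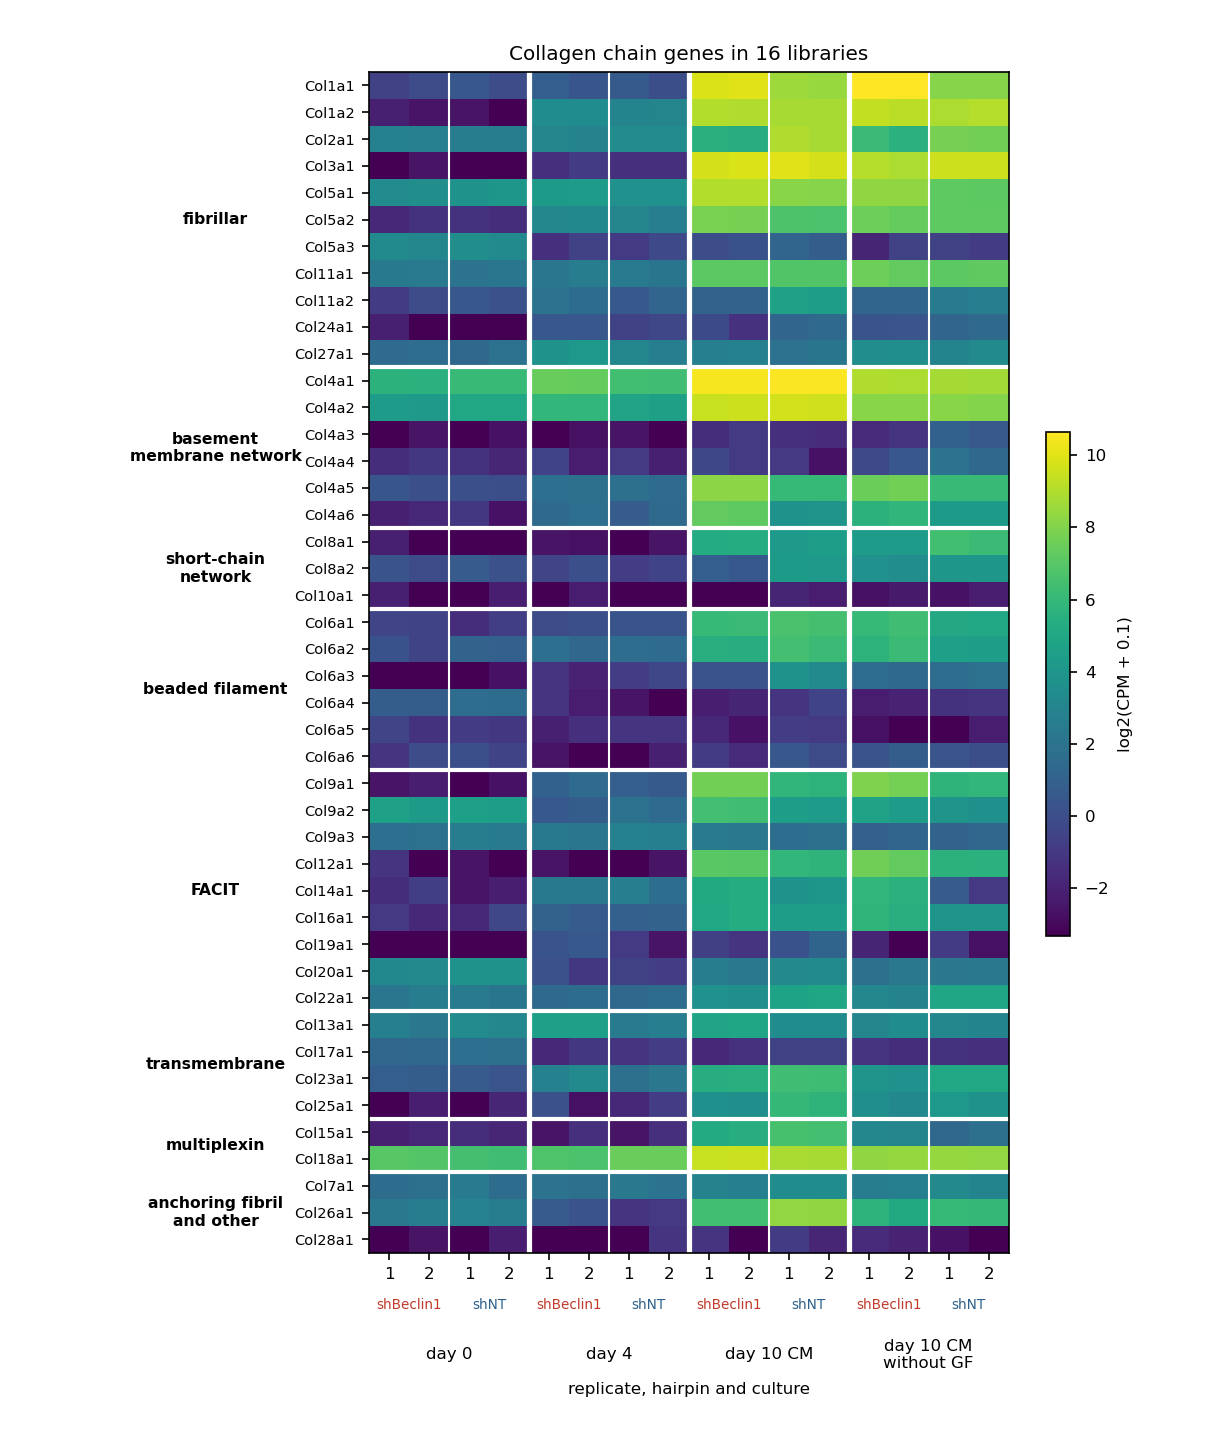
Level of each of the 44 collagen chain genes in each library, as log2(CPM + 0.1), with genes in rows by class and libraries in columns by culture, hairpin and replicate. Colours compare libraries within a row and not genes with each other, since values are not per length; most rows are brightest in the day 10 columns, and replicates of a group have nearly the same colour in the more abundant genes.

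In the test of each step in time, chains turned on in number between day 4 and day 10. Against day 4, 33 of 41 were higher and 4 lower in shBeclin1 CM cells, and 37 higher and 2 lower in shNT CM cells. For shBeclin1 72.4% of all genes were called, 37.3% higher and 35.1% lower, and for shNT 70.0% of all genes were called, 36.8% higher and 33.2% lower. The median member moved by 3.19 in shBeclin1 and 4.16 in shNT on the log2 scale, beside all-gene medians of 0.02 and 0.07. Scaling by total counts in place of TMM shifts the all-gene median of these 2 steps by 0.16 and 0.20. The 2 members lower in shNT CM cells were Col27a1 and Col9a3, and those lower in shNT without GF were Col14a1 and Col9a3; they are named because the counts are small. Without GF the counts were 32 higher and 5 lower in shBeclin1, where 73.8% of all genes were called, 38.0% higher and 35.8% lower, and 35 higher and 2 lower in shNT, where 68.7% of all genes were called, 35.7% higher and 33.0% lower. The earlier step was mixed. At day 4 against day 0, 20 members were higher and 9 lower in shBeclin1, where 67.8% of all genes were called, 35.5% higher and 32.2% lower, and 17 higher and 12 lower in shNT, where 66.9% of all genes were called, 34.3% higher and 32.6% lower. Leaving out the 2 members in shBeclin1 and the 3 in shNT with at most 3 counts at both times, and with genes at 0 counts in 1 group taken at a floor of 3 counts per group, the median member moved by 1.03 in shBeclin1 and 0.48 in shNT on the log2 scale.

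The knockdown moved few collagen chains in stem cells and most of them at day 10. The share of all genes called was likewise lowest at day 0 and highest in the day 10 cultures. At day 0, 1 member was higher and 5 lower in shBeclin1 than in shNT, where 13.3% of all genes were called, 5.79% higher and 7.55% lower. These 6 of 41 tested members are close to the share of all genes. At day 4, 9 were higher and 2 lower, where 20.8% of all genes were called, 10.7% higher and 10.1% lower. In CM cells, 17 were higher and 17 lower, where 38.4% of all genes were called, 19.2% higher and 19.1% lower. The split was thus near even for members and for all genes alike. It shifts with the scaling: with total counts in place of TMM, 15 members were higher and 20 lower. Without GF, 17 were higher and 12 lower, where 54.7% of all genes were called, 27.4% higher and 27.3% lower. The median member moved by -0.11 in CM cells and -0.01 without GF on the log2 scale, against all-gene medians of -0.02 and -0.01. At the earlier times the median was taken over members with more than 3 counts in at least 1 group. It was -0.37 over 32 members at day 0 and 0.30 over 37 members at day 4, against -0.01 and 0.02 for all genes. Leaving out 1 of the 2 differing shNT libraries of day 0 left 6 to 7 called members there, and leaving out 1 of the 2 differing shBeclin1 libraries without GF left 27 to 28.

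The 2 day 10 knockdown comparisons share no library, so their calls can be laid side by side. Of the 41 members, 13 were higher in shBeclin1 in both cultures, 8 were lower in both and 3 were called in neither. There were 4 with opposite calls: Col6a1, Col6a2 and Col15a1 were lower in CM cells and higher without GF, and Col8a1 was higher in CM cells and lower without GF. The remaining 13 were called in 1 culture only: 9 in CM cells and 4 without GF. The same joint counts were not made over all genes, of which 38.4% were called in CM cells and 54.7% without GF. Whether the joint counts are particular to collagen chains was therefore not tested.

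**Figure D3:**
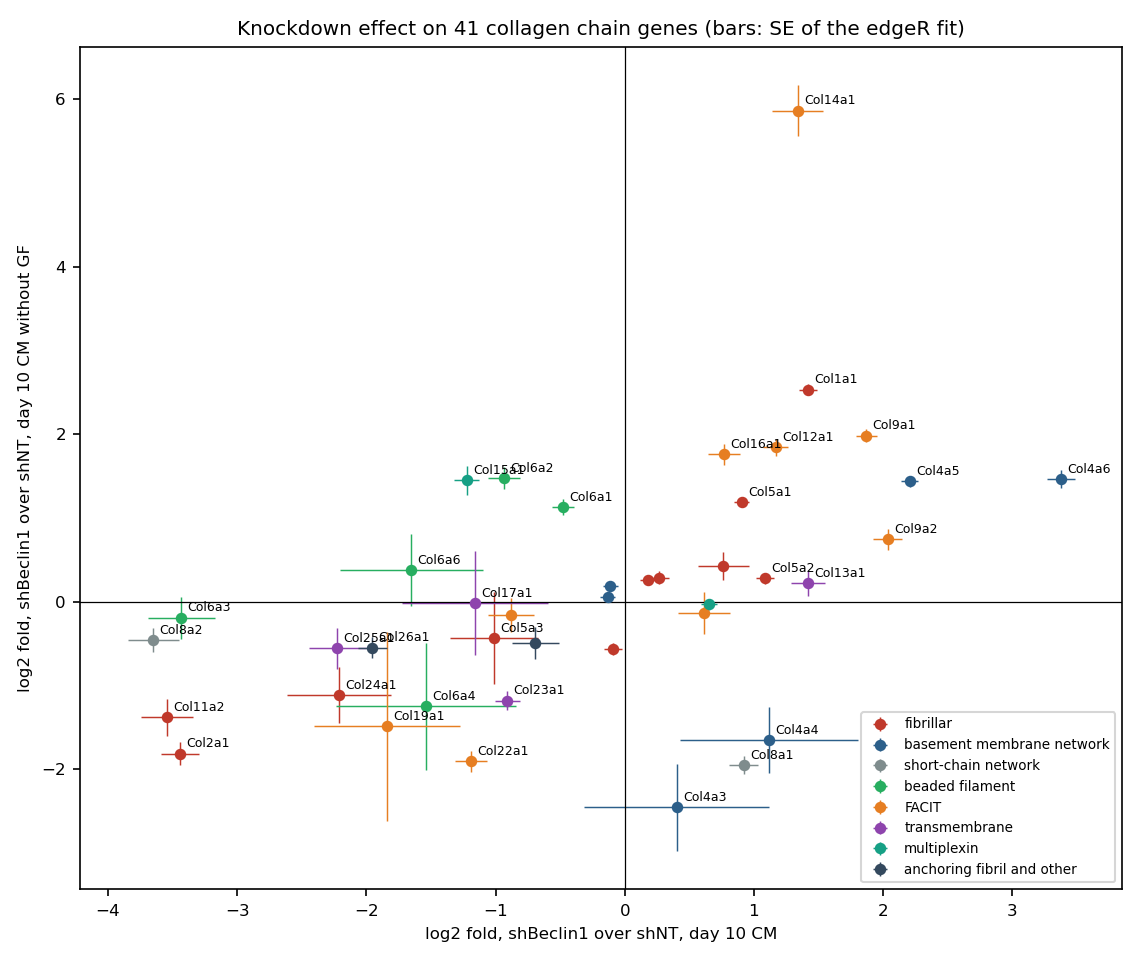
Log2 fold of shBeclin1 over shNT for each of the 41 tested members in day 10 CM cells (horizontal axis) and in day 10 cells without GF (vertical axis), coloured by class, with the standard error of the edgeR fit as bars. Members at upper right, such as Col1a1, Col4a5, Col9a1 and Col12a1, were higher in shBeclin1 in both cultures, those at lower left, such as Col2a1 and Col11a2, lower in both, and Col6a1, Col6a2, Col15a1 and Col8a1 lie in the other corners.

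Of the 11 fibrillar chains, 6 were higher and 4 lower in shBeclin1 in CM cells, and 6 higher and 4 lower without GF. Beside this and the class counts below, 19.2% of all genes were higher and 19.1% lower in CM cells. The shares of all genes without GF were 27.4% higher and 27.3% lower. Type I collagen is normally a trimer of 2 alpha1 chains (Col1a1) and 1 alpha2 chain (Col1a2), and it is the main fibril-former of skin, bone and heart stroma. Col1a1 read 922 and 1048 CPM in shBeclin1 CM libraries against 385 and 353 CPM in shNT (log2 fold 1.42 ± 0.07 SE, edgeR adjusted p = 1.214e-19). Without GF it read 1595 and 1598 CPM in shBeclin1 against 277 and 274 CPM in shNT (log2 fold 2.53 ± 0.07 SE, edgeR adjusted p = 2.847e-27). In both cultures the shBeclin1 libraries lay above the shNT libraries with no overlap, and the effect was larger without GF: the difference, CM minus without GF, was -1.12 ± 0.09 SE in log2 (edgeR adjusted p = 3.656e-12). At day 0 Col1a1 read 0.585 and 0.833 CPM in shBeclin1 and 1.28 and 0.878 CPM in shNT, and at day 4 1.73 and 1.22 CPM in shBeclin1 and 1.46 and 0.941 CPM in shNT, with no call at either time.

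Col1a2, the partner chain, had a smaller fold in both cultures. It read 651 and 592 CPM in shBeclin1 against 493 and 545 CPM in shNT without GF (log2 fold 0.26 ± 0.06 SE, edgeR adjusted p = 0.0005147). In CM cells it read 514 and 495 CPM in shBeclin1 against 447 and 443 CPM in shNT, a log2 fold of 0.18 ± 0.06 SE (edgeR adjusted p = 0.01815). That small CM call is lost without shNT replicate 1 (adjusted p = 0.124), without shNT replicate 2 (0.0979), without shBeclin1 replicate 1 (0.135), with total-count scaling (0.236) and with no low-count filter (0.0527). At day 4 it read 10.9 and 11.2 CPM in shBeclin1 against 7.87 and 8.0 CPM in shNT (log2 fold 0.48 ± 0.12 SE, edgeR adjusted p = 0.004127). Col1a2 was already on at day 4, with 164 and 201 counts in the shBeclin1 libraries, against 2 and 1 counts at day 0. Col1a1 was called higher at day 4 than at day 0 in shBeclin1 (log2 fold 1.03 ± 0.34 SE, edgeR adjusted p = 0.008799), a call lost without shBeclin1 replicate 1 of day 0 (adjusted p = 0.0964) or of day 4 (0.108), and was not called in shNT (adjusted p = 0.7091).

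Per exon length, the ratio of Col1a1 to Col1a2 was therefore not constant. It was 3.39 and 4.01 in the shBeclin1 CM libraries against 1.63 and 1.51 in the shNT CM libraries. Without GF it was 4.64 and 5.11 in shBeclin1 against 1.07 and 0.952 in shNT. At day 4 it was 0.30 and 0.207 in shBeclin1 and 0.352 and 0.223 in shNT, from few Col1a1 counts. The groups did not overlap at day 10 and overlapped at day 4. Merged exons are 6563 bases for Col1a1 and 12426 for Col1a2. The ratio thus serves to compare groups and does not give the proportion of the chains made.

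**Figure D4:**
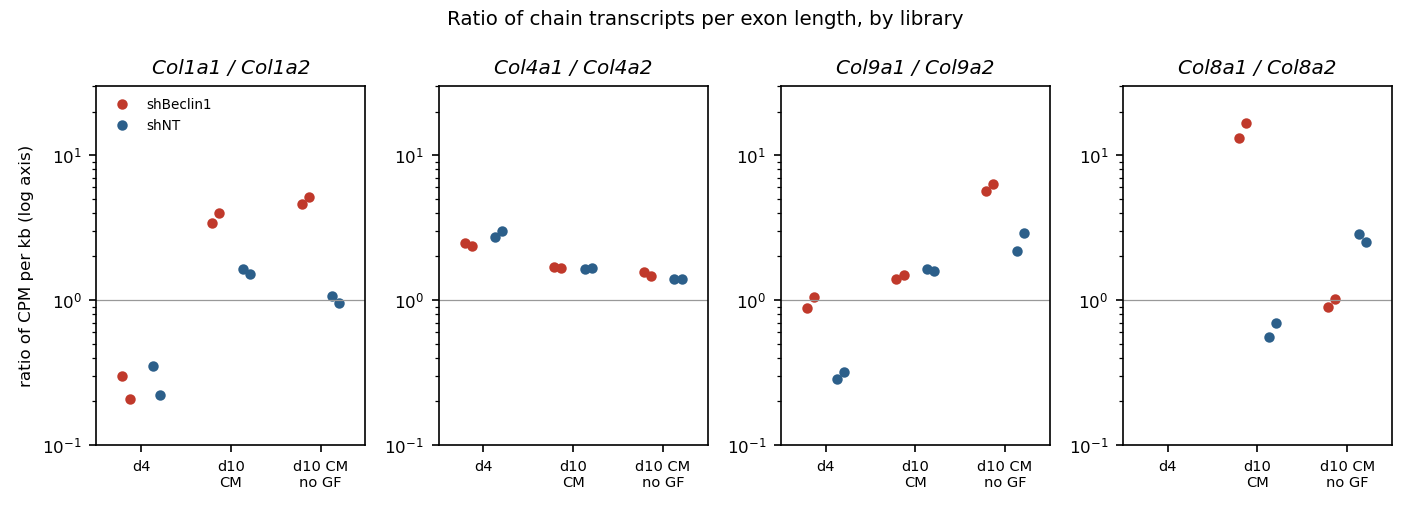
Ratio of CPM per kilobase of exon between partner chains in each library on a log axis, at day 4 and in both day 10 cultures, with shBeclin1 left of shNT; Col8a1 / Col8a2 is drawn at day 10 only, since Col8a1 had 0 to 2 counts a group before. Col1a1 / Col1a2 is 3.39 to 5.11 in day 10 shBeclin1 libraries and 0.952 to 1.63 in day 10 shNT libraries, Col4a1 / Col4a2 stays between 1.39 and 3.01 in the libraries drawn, and Col8a1 / Col8a2 has opposite orders in the 2 day 10 cultures.

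Col3a1, whose chains form homotrimers that mix with type I in elastic tissues, was nearly absent before day 10 and among the most abundant collagen transcripts after. It had 1 count over both shBeclin1 libraries and 0 over both shNT libraries at day 0, and 0.265 and 0.445 CPM in shBeclin1 and 0.279 and 0.269 CPM in shNT at day 4. At day 10 it read 870.1 and 909.6 CPM in shBeclin1 and 1028 and 869 CPM in shNT in CM cells; for shNT that is at least 10125-fold above day 0, taking a floor of 3 counts over the group. The hairpin groups overlapped in CM cells (log2 fold -0.09 ± 0.07 SE, edgeR adjusted p = 0.3124); with total-count scaling or without shNT replicate 2 the gene is called lower there (adjusted p = 0.0294 and 0.0343). Without GF it was lower in shBeclin1, at 542 and 487 CPM against 754 and 768 CPM in shNT (log2 fold -0.57 ± 0.07 SE, edgeR adjusted p = 1.081e-08). Col3a1 thus fell in the culture where Col1a1 rose most, and its knockdown effects in the 2 cultures differed by 0.47 ± 0.10 SE in log2 (CM minus without GF, edgeR adjusted p = 0.0001861).

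The 250 bases before the Col3a1 start are shown because the gene had no count at day 0 in shNT and led the shNT ranking per length without GF; they lie at chr1:45311288-45311537 on the plus strand (GRCm38.p6, from RefSeq), and capitals mark the 1 match to TATAAA.
Col3a1: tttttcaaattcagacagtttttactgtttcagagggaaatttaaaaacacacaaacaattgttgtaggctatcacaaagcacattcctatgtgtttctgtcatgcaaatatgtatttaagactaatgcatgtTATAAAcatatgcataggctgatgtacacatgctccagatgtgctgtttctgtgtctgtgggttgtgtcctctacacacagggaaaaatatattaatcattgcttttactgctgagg
TATAAA was searched on both strands and occurs in 12.4% of 32851 RefSeq promoters cut to the same 250 bases; a match in the letters is a description and not a known site.

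Type V chains nucleate type I fibrils, and Col5a1 changed direction with time. It read 10.7 and 11.7 CPM in shBeclin1 against 14.6 and 16.9 CPM in shNT at day 0 (log2 fold -0.49 ± 0.10 SE, edgeR adjusted p = 0.0008886), a fall that is lost when the day 0 libraries are fitted alone (adjusted p = 0.0514). It was higher in shBeclin1 in every later culture. In embryoid bodies it read 19.6 and 19.8 CPM against 13.5 and 13.4 CPM in shNT (log2 fold 0.55 ± 0.09 SE, edgeR adjusted p = 2.735e-05). In CM cells it read 525 and 524 CPM in shBeclin1 against 285 and 276 CPM in shNT (log2 fold 0.90 ± 0.06 SE, edgeR adjusted p = 1.093e-15). In the culture without GF it read 322 and 324 CPM in shBeclin1 against 143 and 141 CPM in shNT (log2 fold 1.19 ± 0.06 SE, edgeR adjusted p = 4.597e-19). The groups did not overlap in any culture, and the change of effect between day 0 and day 4 was 1.04 ± 0.14 SE in log2 (edgeR adjusted p = 5.92e-07). Its partner Col5a2, named after its values were seen, read 227 and 222 CPM in shBeclin1 against 107 and 105 CPM in shNT in CM cells (log2 fold 1.08 ± 0.07 SE, edgeR adjusted p = 7.881e-16). Without GF Col5a2 read 189.6 and 161 CPM in shBeclin1 against 145 and 144 CPM in shNT, a call (adjusted p = 0.0007361) that is lost without shBeclin1 replicate 1 (0.0732). The Col5a1 effect was the larger one without GF and the Col5a2 effect the larger one in CM cells; the difference between the chains was not tested.

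Chains of cartilage fibrils did not move together. Col2a1, the type II chain, and Col11a2, a type XI chain, were both lower in shBeclin1 at day 10, while Col11a1, the other tested type XI chain, was slightly higher; Col2a1 and Col11a1 were named after their values were seen. Col2a1 read 46.5 and 42.2 CPM in shBeclin1 against 506 and 458 CPM in shNT in CM cells (log2 fold -3.44 ± 0.15 SE, edgeR adjusted p = 2.153e-09). Without GF its values were 72.7 and 47.8 CPM in shBeclin1 against 216 and 205 CPM in shNT (log2 fold -1.81 ± 0.14 SE, edgeR adjusted p = 3.509e-07). Both drops were far beyond the spread of the libraries, and both day 10 shNT groups stood well above their day 4 level of 10.5 and 10.7 CPM. Col11a2 read 2.06 and 2.05 CPM in shBeclin1 against 25.7 and 22.2 CPM in shNT in CM cells (log2 fold -3.54 ± 0.20 SE, edgeR adjusted p = 1.862e-17). Without GF Col11a2 read 2.28 and 2.22 CPM in shBeclin1 against 5.52 and 6.18 CPM in shNT (log2 fold -1.38 ± 0.22 SE, edgeR adjusted p = 1.707e-06). At day 4 Col11a2 pointed the other way, with 3.85 and 3.0 CPM in shBeclin1 against 1.32 and 2.29 CPM in shNT (adjusted p = 0.01178), a call lost without replicate 1 of shBeclin1 (adjusted p = 0.139) or of shNT (0.263).

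Col11a1 read 138 and 141 CPM in shBeclin1 against 117 and 115 CPM in shNT in CM cells (log2 fold 0.27 ± 0.08 SE, edgeR adjusted p = 0.005466). Its values without GF were 192 and 159 CPM in shBeclin1 against 138 and 149 CPM in shNT (adjusted p = 0.001445), and this second call is lost without shBeclin1 replicate 1 (0.12). The CM call is lost without shBeclin1 replicate 2 (adjusted p = 0.0531), without shNT replicate 2 (0.0514) and with total-count scaling (0.0621). Per length, Col11a1 exceeded Col11a2 by 36.2 and 37.2 times in shBeclin1 CM libraries against 2.47 and 2.78 times in shNT CM libraries. Of the markers of cartilage and notochord, 8 genes summed to 126 to 133 CPM in shBeclin1 against 255 to 275 CPM in shNT in CM cells, and to 38.2 to 46.2 CPM in shBeclin1 against 256 to 295 CPM in shNT without GF. The gap in CM cells was that of Shh, a signal of the notochord, at 1.54 and 1.93 CPM in shBeclin1 against 176 and 166 CPM in shNT; the other 7 markers summed to 124 to 132 CPM in shBeclin1 against 89.4 to 98.5 CPM in shNT, the opposite order. Without GF the other 7 summed to 30.4 to 36.3 CPM in shBeclin1 against 44.5 to 45.9 CPM in shNT. Of the 6 tested members of this list, 2 were higher and 3 lower in CM cells, and 2 higher and 4 lower without GF, Noto was at 0 in both day 10 shBeclin1 groups, and Noto and Matn1 were at 0 in shNT without GF; their part in the fall of Col2a1 and Col11a2 was not tested. Markers of fibroblasts and stroma, 10 genes, summed to 254 to 258 CPM in shBeclin1 against 72.9 to 74.8 CPM in shNT at day 4, when Col1a2 and Col5a1 were higher in shBeclin1, with Lum and Tcf21 at 0 in shBeclin1. Pdgfra, a receptor of mesoderm and fibroblasts, read 202 and 206 CPM in shBeclin1 against 44.5 and 44.97 CPM in shNT there, and the other 9 summed to 47.6 to 56.3 CPM in shBeclin1 against 28.4 to 29.8 CPM in shNT. Of the 10, 3 were called higher at day 4 and 2, Dcn and Thy1, lower. At day 10 they summed to 394 to 409 CPM in shBeclin1 against 574 to 600.4 CPM in shNT in CM cells, and to 540.1 to 545 CPM in shBeclin1 against 481 to 505 CPM in shNT without GF. Of the 10, 2 were higher and 7 lower in CM cells and 3 higher and 4 lower without GF, where Tcf21 was at 0 in shNT. Without GF the 9 markers other than Pdgfra had the opposite order, at 225 to 246 CPM in shBeclin1 against 409.5 to 442 CPM in shNT. So the stromal sum was lower in the shBeclin1 CM libraries, in which Col1a1, Col5a1 and Col5a2 were higher; its part in the fibrillar values was not tested.

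Col27a1, a minor fibrillar chain of cartilage, was among the more changed members at day 4. It read 14.6 and 17.5 CPM in shBeclin1 against 8.5 and 6.12 CPM in shNT at day 4 (log2 fold 1.14 ± 0.17 SE, edgeR adjusted p = 2.005e-06), its highest levels in the series under the shBeclin1 hairpin. At day 10 it stayed higher in shBeclin1, by 0.76 in CM cells (adjusted p = 0.001807) and 0.43 without GF (adjusted p = 0.0252) in log2. These are weak calls: the first is lost without shNT replicate 1 (adjusted p = 0.0637), the second without shNT replicate 1 (0.277), without shBeclin1 replicate 2 (0.104) and with DESeq2 (0.0701). The remaining fibrillar members, Col5a3 and Col24a1, reached at most 2.27 and 2.75 CPM at day 10, and Col5a3 was highest at day 0, reaching 11.8 CPM.

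**Figure D5:**
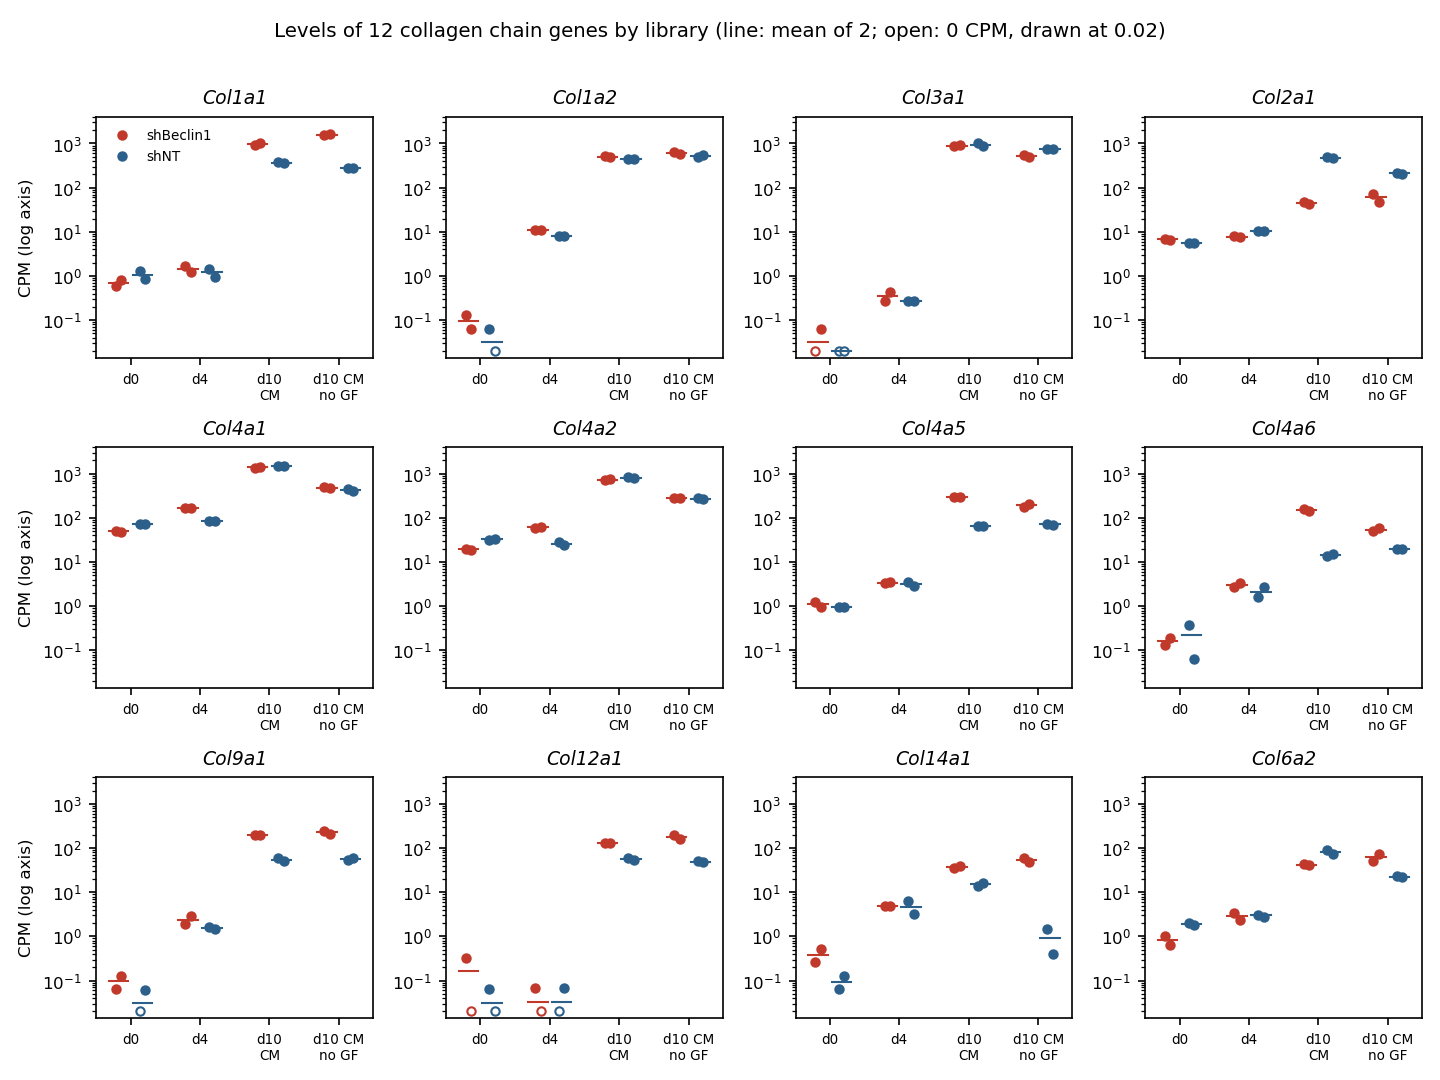
Level of 12 collagen chain genes in CPM on a log axis, 1 point per library and a bar at the mean of each group of 2, with shBeclin1 left of shNT in each culture; open points are 0 CPM, drawn at 0.02. Col1a1, Col4a5, Col4a6, Col9a1, Col12a1 and Col14a1 separate by hairpin at day 10 with shBeclin1 above shNT, Col2a1 with shBeclin1 below shNT, and Col6a2 changes order between the 2 day 10 cultures.

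The type IV genes lie in 3 head-to-head pairs, each pair transcribed in opposite directions from a shared region, and here each pair followed its own course. Of the 6, 2 were higher and 0 lower in shBeclin1 in CM cells, and 3 higher and 2 lower without GF. Col4a1 and Col4a2, which make the trimer found in nearly all basement membranes, start within 21 bases of each other on chromosome 8. Their knockdown effect reversed between stem cells and embryoid bodies. At day 0 Col4a1 read 49.4 and 49.01 CPM in shBeclin1 against 70.9 and 71.3 CPM in shNT (log2 fold -0.53 ± 0.07 SE, edgeR adjusted p = 1.073e-06). Its day 4 values were 168 and 164 CPM in shBeclin1 against 85.9 and 83.3 CPM in shNT (log2 fold 0.97 ± 0.06 SE, edgeR adjusted p = 6.705e-15). So Col4a1 was lower in shBeclin1 at day 0 and higher at day 4. Col4a2 did the same, at 19.8 and 18.96 CPM in shBeclin1 against 32.05 and 33.7 CPM in shNT at day 0 (log2 fold -0.76 ± 0.09 SE, edgeR adjusted p = 1.022e-07). At day 4 Col4a2 read 60.1 and 61.05 CPM in shBeclin1 against 27.99 and 24.5 CPM in shNT (log2 fold 1.21 ± 0.08 SE, edgeR adjusted p = 4.848e-15). For both genes the groups did not overlap at either time, and the change of effect from day 0 to day 4 was 1.50 ± 0.09 SE for Col4a1 and 1.97 ± 0.12 SE for Col4a2 in log2 (edgeR adjusted p = 6.891e-15 and 1.695e-15).

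At day 10 this pair went with the culture more than with the hairpin. Col4a1 read 1381 and 1422 CPM in shBeclin1 and 1527 and 1499.8 CPM in shNT in CM cells, and 495 and 478 CPM in shBeclin1 and 441 and 416 CPM in shNT without GF. Col4a2 read 719 and 754 CPM in shBeclin1 and 821 and 794 CPM in shNT in CM cells, and 282 and 288 CPM in shBeclin1 and 281 and 266 CPM in shNT without GF. The hairpin difference in CM cells was not called for either gene (edgeR adjusted p = 0.1224 and 0.07339). With total-count scaling both are called lower (adjusted p = 0.00281 and 0.00193), and Col4a2 also with the 4 libraries fitted alone (0.0403) or with no low-count filter (0.0395). Without GF Col4a1 was called higher by 0.19 in log2 (adjusted p = 0.006349), a call lost without shNT replicate 2 (0.136), and Col4a2 was not (adjusted p = 0.4093). Their ratio per length lay between 1.39 and 3.01 over the day 4 and day 10 libraries.

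Col4a5 and Col4a6, which form a trimer of smooth muscle and some epithelial basement membranes, start 1309 bases apart on the X chromosome and were the type IV genes with the largest knockdown effect in CM cells. Col4a5 read 299.7 and 295 CPM in shBeclin1 against 64.4 and 64.5 CPM in shNT in CM cells (log2 fold 2.21 ± 0.07 SE, edgeR adjusted p = 1.535e-25). Without GF it read 179 and 205 CPM in shBeclin1 against 71.3 and 70.6 CPM in shNT (log2 fold 1.44 ± 0.07 SE, edgeR adjusted p = 3.272e-20). Col4a5 was thus higher in shBeclin1 in both cultures, as was its neighbour. Col4a6 read 156 and 143 CPM in shBeclin1 against 13.7 and 15.1 CPM in shNT in CM cells (log2 fold 3.38 ± 0.11 SE, edgeR adjusted p = 1.011e-24). Without GF Col4a6 read 49.3 and 58.3 CPM in shBeclin1 against 19.5 and 19.5 CPM in shNT (log2 fold 1.47 ± 0.11 SE, edgeR adjusted p = 1.766e-14). Every shBeclin1 library lay above every shNT library for both genes in both cultures. The effect was larger in CM cells, by 0.77 ± 0.09 SE for Col4a5 and 1.91 ± 0.15 SE for Col4a6 in log2 (edgeR adjusted p = 2.302e-08 and 8.724e-13). The pair did not keep a fixed ratio: per length Col4a5 exceeded Col4a6 by 2.28 and 2.45 times in shBeclin1 CM libraries against 5.56 and 5.06 times in shNT CM libraries. Before day 10 both were low, with Col4a5 at 3.32 and 3.45 CPM in shBeclin1 and 3.48 and 2.82 CPM in shNT at day 4, and no hairpin difference was called.

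The bases just before the 2 starts are shown because both neighbours were higher in shBeclin1 in both day 10 cultures, and they come from RefSeq on GRCm38.p6. For Col4a5 they lie at chrX:141475169-141475384 on the plus strand and for Col4a6 at chrX:141474077-141474326 on the minus strand, each written along its own gene, with capitals at the 1 match to CCAAT before Col4a5 and the 1 match to GGGCGG, here on the other strand, before Col4a6.
Col4a5: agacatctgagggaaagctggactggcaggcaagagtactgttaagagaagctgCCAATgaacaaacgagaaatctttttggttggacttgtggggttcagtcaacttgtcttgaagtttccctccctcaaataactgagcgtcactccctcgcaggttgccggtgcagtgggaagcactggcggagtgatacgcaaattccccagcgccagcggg
Col4a6: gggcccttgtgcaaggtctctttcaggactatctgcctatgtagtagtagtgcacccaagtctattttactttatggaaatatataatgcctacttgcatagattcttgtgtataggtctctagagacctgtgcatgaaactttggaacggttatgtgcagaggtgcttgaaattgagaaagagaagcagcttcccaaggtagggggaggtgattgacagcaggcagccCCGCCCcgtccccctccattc
The same motifs as for Col3a1 were searched on both strands, and no other match was found in either window. CCAAT occurs in 30.5% of RefSeq promoters cut to the 216 bases shown for Col4a5. GGGCGG occurs in 32.7% of those cut to the 250 bases shown for Col4a6. Neither window holds TATAAA.

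Col4a3 and Col4a4, the pair of kidney and lung basement membranes on chromosome 1, were near the limit of detection and were named after their values were seen. Without GF Col4a3 read 0.228 and 0.353 CPM in shBeclin1 against 1.92 and 1.37 CPM in shNT (log2 fold -2.45 ± 0.52 SE, edgeR adjusted p = 0.000116). Col4a4 read 0.74 and 1.26 CPM in shBeclin1 against 3.84 and 2.58 CPM in shNT there (log2 fold -1.65 ± 0.40 SE, edgeR adjusted p = 0.0005478). So this pair was lower in shBeclin1 where Col4a5 and Col4a6 were higher; in all other groups both stayed under 1 CPM. Endothelial markers, 8 genes, summed to 987 to 1054 CPM in shBeclin1 and 930.0 to 932 CPM in shNT in CM cells, and to 301 to 390.0 CPM in shBeclin1 and 74.8 to 77.9 CPM in shNT without GF, where all 8 were called higher. In CM cells they did not move together. Emcn, at 63.2 and 73.3 CPM in shBeclin1 against 89.7 and 91.9 CPM in shNT, Erg and Tek had lower values in shBeclin1. Pecam1, Cdh5, Kdr, Vwf and Tie1 had higher values there. Markers of parietal and visceral endoderm, 8 genes, summed to 370.2 to 374 CPM in shBeclin1 and 297 to 299.8 CPM in shNT in CM cells, and to 481 to 515 CPM in shBeclin1 and 73.6 to 76.8 CPM in shNT without GF, where 7 were called higher and 1 lower. At day 4 the endothelial sum was 159 to 161 CPM in shBeclin1 against 30.7 to 33.8 CPM in shNT, with Emcn at 0 in both, and the endoderm sum 65.3 to 68.8 CPM in shBeclin1, with Afp and Apoa1 at 0, against 38.5 to 40.5 CPM in shNT, with Ttr at 0. Single genes carried these gaps. Without Kdr, a receptor of endothelium and of early mesoderm, at 148 and 150.2 CPM in shBeclin1 against 24.2 and 22.99 CPM in shNT, the other 7 endothelial markers summed to 10.5 to 10.6 CPM in shBeclin1 against 7.66 to 9.61 CPM in shNT; 3 of the 8 were called higher and 0 lower. Without Gata6, at 47.1 and 42.7 CPM in shBeclin1 against 15.8 and 17.8 CPM in shNT, the other 7 endoderm markers summed to 21.7 to 22.6 CPM in shBeclin1 and 20.7 to 24.6 CPM in shNT, with overlapping ranges; 2 of the 8 were called higher and 1, Dab2, lower. In CM cells the other 7 endoderm markers had the opposite order to the whole list, at 237 to 244 CPM in shBeclin1 against 287 to 292 CPM in shNT. Epithelial markers, 6 genes, summed to 332 to 341 CPM in shBeclin1 against 554 to 575 CPM in shNT in CM cells. The order was opposite without GF, at 541 to 659 CPM in shBeclin1 against 147 to 163 CPM in shNT. Cdh1 did not go with that sum, at 24.2 and 18.9 CPM in shBeclin1 against 29.5 and 24.3 CPM in shNT without GF. The part of all these markers in the type IV values was not tested.

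Of the 9 FACIT chains, 6 were higher and 3 lower in shBeclin1 in CM cells, and 5 higher and 1 lower without GF. Of all genes, 19.2% were higher and 19.1% lower in CM cells, and 27.4% higher and 27.3% lower without GF. Whether the split is particular to this class was not tested. Per kilobase of exon, FACIT chains summed to 90.5 ± 0.573 CPM in shBeclin1 against 32.8 ± 0.759 in shNT in CM cells, and to 81.4 ± 10.8 in shBeclin1 against 26.2 ± 0.297 in shNT without GF (mean ± SD, n = 2). Type IX chains sit on type II fibrils in cartilage; Col9a1 and Col9a2 rose in both cultures, in which Col2a1 fell. Col9a1 read 201 and 203 CPM in shBeclin1 against 58.3 and 51.9 CPM in shNT in CM cells (log2 fold 1.87 ± 0.08 SE, edgeR adjusted p = 1.206e-19). In the culture without GF it read 245 and 208 CPM in shBeclin1 against 53.6 and 60.9 CPM in shNT (log2 fold 1.98 ± 0.08 SE, edgeR adjusted p = 1.129e-20). No difference between the 2 effects was called (-0.12 ± 0.11 SE in log2, CM minus without GF, edgeR adjusted p = 0.4776).

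Col9a2, a second type IX chain, was one of the few collagen chains expressed in stem cells. It read 25.4 and 19.7 CPM in shBeclin1 and 23.4 and 22.01 CPM in shNT at day 0, with no hairpin difference called. At day 4 it read 1.33 and 1.67 CPM in shBeclin1 against 3.55 and 2.82 CPM in shNT (log2 fold -1.07, edgeR adjusted p = 0.005106), a call lost without replicate 1 of shBeclin1 (adjusted p = 0.0642) or of shNT (0.0893). In CM cells it read 87.98 and 82.6 CPM in shBeclin1 against 21.6 and 19.9 CPM in shNT (log2 fold 2.04 ± 0.11 SE, edgeR adjusted p = 6.615e-17), and without GF 26.5 and 20.1 CPM against 14.9 and 12.8 CPM (log2 fold 0.75 ± 0.13 SE, edgeR adjusted p = 6.38e-06). It dipped at day 4 and rose again by day 10 under both hairpins. The day 10 level was above that of day 0 in shBeclin1 CM cells and below it in shNT without GF. Col9a3 did not share this course, staying between 1.82 and 6.89 CPM in every library. It was also called higher in shBeclin1 in CM cells (log2 fold 0.61) and was not called without GF.

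Col12a1 and Col14a1 bind the surface of type I fibrils in tendon and other dense tissue. Col12a1 was at 1 and 0 counts in shBeclin1 and 0 and 1 counts in shNT at day 4. At day 10 it read 132 and 127 CPM in shBeclin1 against 60.7 and 54.7 CPM in shNT in CM cells (log2 fold 1.17 ± 0.10 SE, edgeR adjusted p = 6.714e-10). Without GF its values were 195 and 159 CPM in shBeclin1 against 49.7 and 48.9 CPM in shNT (log2 fold 1.84 ± 0.10 SE, edgeR adjusted p = 9.734e-14). Taking counts over the groups, shNT CM cells held 1701 times the day 4 level, with a 95% counting interval of 305 to 67198 that covers counting error only. Col14a1, named after its values were seen, had the largest fitted knockdown effect of any called member, in the culture where its shNT level was near 1 CPM. It read 60.8 and 47.6 CPM in shBeclin1 against 1.49 and 0.401 CPM in shNT there (log2 fold 5.86 ± 0.30 SE, edgeR adjusted p = 2.027e-10). In CM cells it read 36.01 and 39.7 CPM in shBeclin1 against 13.6 and 16.5 CPM in shNT (log2 fold 1.34 ± 0.19 SE, edgeR adjusted p = 5.257e-05), and at day 4 4.84 and 4.95 CPM in shBeclin1 and 6.2 and 3.23 CPM in shNT with no call. The knockdown effect in CM cells minus that without GF was -4.52 ± 0.40 SE in log2 (edgeR adjusted p = 3.603e-07).

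Col16a1, also named after its values were seen, went the same way, at 56.8 and 44.9 CPM in shBeclin1 against 15.1 and 14.9 CPM in shNT without GF (log2 fold 1.76 ± 0.12 SE, edgeR adjusted p = 1.503e-14) and with a log2 fold of 0.77 in CM cells (adjusted p = 2.361e-06). Col22a1, a chain of tissue junctions such as that of muscle and tendon, was lower in both cultures. It read 13.4 and 12.2 CPM in shBeclin1 against 27.2 and 31.2 CPM in shNT in CM cells (log2 fold -1.19 ± 0.12 SE, edgeR adjusted p = 3.526e-10). Without GF Col22a1 read 8.71 and 7.42 CPM in shBeclin1 against 30.9 and 29.4 CPM in shNT (log2 fold -1.90 ± 0.13 SE, edgeR adjusted p = 2.536e-15). It was the 1 FACIT chain called lower without GF, and its hairpin groups did not overlap in either culture. Col20a1 was highest in stem cells, at 9.17 and 9.35 CPM in shBeclin1 against 13.9 and 14.04 CPM in shNT at day 0 (log2 fold -0.59, adjusted p = 0.01335); that call is lost without shBeclin1 replicate 1 (adjusted p = 0.109) or 2 (0.1). In CM cells Col20a1 read 5.72 and 4.74 CPM in shBeclin1 against 9.53 and 9.66 CPM in shNT (log2 fold -0.88 ± 0.18 SE, edgeR adjusted p = 0.0001284). Col19a1 stayed at or under 2.16 CPM in every library. On few counts it was called higher in shBeclin1 at day 4 (log2 fold 2.33) and lower in CM cells (log2 fold -1.84).

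Type VI collagen is built from Col6a1 and Col6a2 together with another chain, classically Col6a3, and forms microfilaments around cells of heart, muscle and skin. Of the 5 tested beaded filament chains, 0 were higher and 4 lower in shBeclin1 in CM cells, and 2 higher and 0 lower without GF. The 2 shared chains changed sign between the cultures. Col6a1 read 65.9 and 73.7 CPM in shBeclin1 against 101 and 92.9 CPM in shNT in CM cells (log2 fold -0.47 ± 0.09 SE, edgeR adjusted p = 1.801e-05). Its values without GF were 65.6 and 82.2 CPM in shBeclin1 against 33.97 and 33.6 CPM in shNT (log2 fold 1.13 ± 0.09 SE, edgeR adjusted p = 2.678e-13). So the hairpins changed order for this chain. Col6a2 read 43.8 and 40.8 CPM in shBeclin1 against 88.7 and 72.3 CPM in shNT in CM cells (log2 fold -0.93 ± 0.12 SE, edgeR adjusted p = 3.333e-06). Without GF Col6a2 read 52.1 and 72.5 CPM in shBeclin1 against 23.2 and 21.7 CPM in shNT (log2 fold 1.48 ± 0.13 SE, edgeR adjusted p = 7.161e-09). The shNT level of both genes was lower without GF than in CM cells (log2 fold of CM over without GF 1.52 for Col6a1 and 1.85 for Col6a2), and their shBeclin1 levels in the 2 cultures lay closer, at -0.08 and -0.56 in log2. The test of the difference of effects gave -1.61 ± 0.12 SE for Col6a1 and -2.41 ± 0.18 SE for Col6a2 in log2 (CM minus without GF, edgeR adjusted p = 4.224e-13 and 1.43e-09).

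Col6a3 was far scarcer. It read 1.09 and 1.11 CPM in shBeclin1 against 13.8 and 9.96 CPM in shNT in CM cells (log2 fold -3.43 ± 0.26 SE, edgeR adjusted p = 1.512e-13). Without GF it read 3.13 and 2.78 CPM in shBeclin1 and 3.1 and 3.6 CPM in shNT, with overlapping ranges and no call. The drop in CM cells was the largest of the class. Per length, Col6a1 exceeded Col6a3 by 165 and 181 times in the shBeclin1 CM libraries against 19.96 and 25.5 times in the shNT CM libraries. The other possible partners, Col6a4, Col6a5 and Col6a6, reached at most 0.60, 0.481 and 1.62 CPM in the day 4 and day 10 libraries.

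The short-chain network genes Col8a1 and Col8a2 encode the 2 chains of type VIII collagen, known from vessel walls and the cornea, and they responded in opposite ways in CM cells. In CM cells Col8a1 read 38.3 and 39.3 CPM in shBeclin1 against 18.5 and 22.8 CPM in shNT (log2 fold 0.92 ± 0.11 SE, edgeR adjusted p = 8.584e-09). Col8a2 read 1.67 and 1.34 CPM in shBeclin1 against 19.1 and 18.7 CPM in shNT there (log2 fold -3.65 ± 0.20 SE, edgeR adjusted p = 4.873e-18). So the 2 partner chains moved apart in CM cells. Without GF Col8a1 read 20.7 and 20.3 CPM in shBeclin1 against 84.1 and 73.9 CPM in shNT (log2 fold -1.95 ± 0.11 SE, edgeR adjusted p = 6.141e-18). Col8a2 read 13.3 and 11.4 CPM in shBeclin1 against 16.8 and 16.9 CPM in shNT without GF (log2 fold -0.46, adjusted p = 0.006674), a call lost without shBeclin1 replicate 2 (0.0845). Per length the ratio of Col8a1 to Col8a2 was 13.1 and 16.7 in shBeclin1 against 0.555 and 0.698 in shNT in CM cells, and 0.895 and 1.02 in shBeclin1 against 2.87 and 2.5 in shNT without GF. The order of the hairpins was opposite in the 2 cultures.

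Transmembrane collagens are single-pass membrane proteins with a collagenous outer part. Col13a1, found at sites of cell adhesion and at the neuromuscular junction, had the largest called knockdown effect at day 4 after that of Col19a1, a chain of few counts. Of the 4 transmembrane chains, 1 was higher and 2 lower in shBeclin1 in CM cells, and 1 was lower without GF. Col13a1 read 23.9 and 23.6 CPM in shBeclin1 against 5.36 and 6.12 CPM in shNT at day 4 (log2 fold 2.04 ± 0.15 SE, edgeR adjusted p = 2.664e-13). At day 0 it was lower in shBeclin1, at 6.31 and 4.61 CPM against 10.4 and 8.72 CPM (log2 fold -0.81 ± 0.17 SE, edgeR adjusted p = 0.00115), a call lost without shBeclin1 replicate 2 (adjusted p = 0.082). In CM cells it read 28.9 and 29.8 CPM in shBeclin1 against 10.9 and 11.1 CPM in shNT (log2 fold 1.42 ± 0.13 SE, edgeR adjusted p = 1.41e-11). In the culture without GF it read 8.08 and 11.1 CPM in shBeclin1 and 8.68 and 7.9 CPM in shNT, with overlapping groups (adjusted p = 0.2304, and 0.0279 without shBeclin1 replicate 1). The change of effect between day 0 and day 4 was 2.85 ± 0.23 SE in log2 (edgeR adjusted p = 7.652e-12).

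Col23a1 and Col25a1 were lower in shBeclin1 in CM cells; Col25a1 is known from muscle innervation and from amyloid plaques. Col23a1 read 42.1 and 44.4 CPM in shBeclin1 against 82.97 and 79.2 CPM in shNT (log2 fold -0.91 ± 0.10 SE, edgeR adjusted p = 4.557e-10). Without GF its values were 14.8 and 13.3 CPM in shBeclin1 against 31.9 and 31.6 CPM in shNT (log2 fold -1.18 ± 0.11 SE, edgeR adjusted p = 2.479e-11). At day 4 it was the other way round, with 6.9 and 10.2 CPM in shBeclin1 against 3.41 and 4.5 CPM in shNT (log2 fold 1.13 ± 0.17 SE, edgeR adjusted p = 4.524e-06). Its direction thus changed between day 4 and day 10. Col25a1 read 12.9 and 12.3 CPM in shBeclin1 against 64.03 and 53.7 CPM in shNT in CM cells (log2 fold -2.23 ± 0.22 SE, edgeR adjusted p = 2.209e-06). Without GF Col25a1 read 12.4 and 9.24 CPM in shBeclin1 and 17.4 and 14.3 CPM in shNT, not called with all libraries (adjusted p = 0.07106) but called without shBeclin1 replicate 1 (0.0339), with a replicate block (0.00471), with the compared libraries alone (0.00965) and with no low-count filter (0.000258). Neural markers, 6 genes, summed to 7.65 to 8.77 CPM in shBeclin1 against 45.02 to 49.4 CPM in shNT in CM cells, and to 28.2 to 32.5 CPM against 423 to 427 CPM without GF; of the 6, 6 were lower in CM cells, where Sox1 was at 0 in shBeclin1, and 5 without GF, where Pax6 was called higher, at 20.2 and 24.5 CPM in shBeclin1 against 4.53 and 6.92 CPM in shNT. Their part in the Col25a1 and Col23a1 values was not tested. Col17a1, the remaining chain, reached at most 0.569 CPM after day 0.

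The multiplexins Col15a1 and Col18a1 are basement membrane zone collagens whose cleaved ends include endostatin, released from Col18a1. Col18a1 was the one member called higher in shBeclin1 at day 0, at 129 and 118 CPM against 90.9 and 83.02 CPM in shNT (log2 fold 0.51 ± 0.07 SE, edgeR adjusted p = 1.967e-06). At day 4 it was lower, at 109 and 105 CPM in shBeclin1 against 175 and 172 CPM in shNT (log2 fold -0.70 ± 0.07 SE, edgeR adjusted p = 1.151e-10). These 2 calls have the opposite signs to those of Col4a1 and Col4a2 at the same times. In CM cells Col18a1 read 701 and 731 CPM in shBeclin1 against 462 and 449 CPM in shNT (log2 fold 0.65 ± 0.06 SE, edgeR adjusted p = 2.215e-11). Its values without GF were 322 and 339.7 CPM in shBeclin1 and 346 and 329.7 CPM in shNT, with overlapping groups and no call (adjusted p = 0.7097). Col15a1 read 37.7 and 41.6 CPM in shBeclin1 against 96.2 and 88.95 CPM in shNT in CM cells (log2 fold -1.22 ± 0.10 SE, edgeR adjusted p = 3.297e-13). Without GF Col15a1 read 8.59 and 8.03 CPM in shBeclin1 against 2.54 and 3.49 CPM in shNT (log2 fold 1.45 ± 0.17 SE, edgeR adjusted p = 4.726e-09). Col15a1, a gene of muscle and capillary basement membranes, therefore changed direction between the cultures, with a difference of effects of -2.68 ± 0.20 SE in log2 (edgeR adjusted p = 9.841e-14).

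Of the other chains, Col26a1 was the most abundant. It read 83.7 and 85.3 CPM in shBeclin1 against 338 and 317 CPM in shNT in CM cells (log2 fold -1.95 ± 0.11 SE, edgeR adjusted p = 4.201e-10). Without GF it read 53.04 and 36.2 CPM in shBeclin1 against 66.5 and 63.3 CPM in shNT (log2 fold -0.55, adjusted p = 0.001235, and 0.0601 with the 4 libraries fitted alone). The shNT CM libraries stood out, above all other libraries of the series for this gene. Col7a1, the chain of the anchoring fibrils that tie epithelium to the dermis, read 7.46 and 6.37 CPM in shBeclin1 against 11.2 and 11.2 CPM in shNT in CM cells (log2 fold -0.69, adjusted p = 0.002071). Both tested chains of this class were thus lower in shBeclin1 in CM cells. The Col7a1 call is lost without shBeclin1 replicate 2 (adjusted p = 0.0523). Without GF its log2 fold was -0.49 (adjusted p = 0.02659), lost without shNT replicate 1 (0.215), without shBeclin1 replicate 1 (0.124) and with DESeq2 (0.0819).

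The labelled difference between the 2 day 10 cultures, with or without GF, was also large for collagen chains and depended on the hairpin. In shBeclin1, 17 of 41 members were higher and 13 lower in CM cells than without GF, where 37.0% of all genes were called, 20.3% higher and 16.7% lower. In shNT, 23 were higher and 8 lower, where 52.8% of all genes were called, 26.9% higher and 25.9% lower. The median member moved by 0.19 in shBeclin1 and 0.48 in shNT on the log2 scale, against 0.00 and 0.00 for all genes. Col4a1 and Col4a2 were higher in CM cells under both hairpins, by 1.53 and 1.37 in shBeclin1 and 1.82 and 1.56 in shNT in log2 (edgeR adjusted p at or below 3.359e-20). Col15a1 had the largest change of the named members in shNT, at 96.2 and 88.95 CPM in CM cells against 2.54 and 3.49 CPM without GF (log2 fold 4.93 ± 0.14 SE, edgeR adjusted p = 1.199e-26), and 37.7 and 41.6 CPM against 8.59 and 8.03 CPM in shBeclin1 (log2 fold 2.26 ± 0.12 SE, edgeR adjusted p = 6.854e-18). Col1a1 changed direction with the hairpin, with a log2 fold of -0.70 ± 0.07 SE in shBeclin1 and 0.42 ± 0.07 SE in shNT (edgeR adjusted p = 4.5e-11 and 1.791e-06), and so did Col8a1 (0.92 in shBeclin1 and -1.94 in shNT, edgeR adjusted p = 1.141e-08 and 8.198e-18).

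Whether the knockdown effect itself changed between cultures was tested gene by gene. Between day 0 and day 4 it changed for 6 members upward and 2 downward, where 14.8% of all genes were called, 7.93% higher and 6.90% lower. Between day 4 and CM cells it changed for 11 upward and 13 downward, where 26.1% of all genes were called, 12.2% higher and 13.9% lower. Between the 2 day 10 cultures it was higher in CM cells for 11 and lower for 17, where 34.4% of all genes were called, 16.2% higher and 18.2% lower. All 4 called beaded filament members of this last test had a lower effect in CM cells, and 4 of the 5 called type IV members a higher one.

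The machinery that modifies, folds, cuts and degrades collagen was read from a list of 60 genes, of which 54 were tested. In shBeclin1 against shNT, 3 were higher and 12 lower at day 0, 21 higher and 2 lower at day 4, 30 higher and 17 lower in CM cells, and 34 higher and 8 lower without GF. Of all genes, 13.3%, 20.8%, 38.4% and 54.7% were called in these cultures. By direction, 19.2% were higher and 19.1% lower in CM cells, and 27.4% higher and 27.3% lower without GF. The subgroup counts below are to be read beside these shares. The median gene of the list moved by -0.18, 0.19, 0.29 and 0.54 in these cultures on the log2 scale, beside all-gene medians between -0.02 and 0.02. Of the 12 lower at day 0, 5 were higher at day 4: Creb3l1, Mmp14, P4ha1, Plod1 and Serpinh1, named because the count is small. The same joint count was not made over all genes, so whether it is particular to this list was not tested. Only Serpinh1 of the 5 kept both calls under every alternative run. Leaving out 1 library ended the day 0 call of Creb3l1 without shNT replicate 2 (adjusted p = 0.059) or shBeclin1 replicate 2 (0.172), and its day 4 call without replicate 1 of shNT (0.085) or shBeclin1 (0.0794). The day 0 call of Mmp14 is lost without shNT replicate 1 (0.169), shBeclin1 replicate 1 (0.0662) or shBeclin1 replicate 2 (0.277). The day 4 calls of P4ha1 and Plod1 are lost without shNT replicate 1 (0.102 and 0.254), shNT replicate 2 (0.123 and 0.0863) or shBeclin1 replicate 2 (0.341 and 0.371). Total-count scaling also ended the day 4 calls of P4ha1 (0.0635) and Plod1 (0.111), and DESeq2 that of Plod1 (0.0676). All 10 genes of chaperoning and export were higher in shBeclin1 without GF; in CM cells 6 were higher and 2 lower.

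Serpinh1, the collagen-specific chaperone HSP47 of the endoplasmic reticulum, followed this course. It read 62.6 and 62.5 CPM in shBeclin1 against 88.4 and 79.2 CPM in shNT at day 0 (log2 fold -0.42 ± 0.07 SE, edgeR adjusted p = 6.096e-05). In embryoid bodies it read 122 and 121 CPM in shBeclin1 against 72.6 and 75.97 CPM in shNT (log2 fold 0.71 ± 0.07 SE, edgeR adjusted p = 1.639e-10). At day 10 it was higher in shBeclin1 in both cultures, at 741 and 799 CPM against 594 and 593 CPM in CM cells (log2 fold 0.38 ± 0.06 SE, edgeR adjusted p = 2.921e-06) and 685 and 657 CPM against 357 and 377 CPM without GF (log2 fold 0.87 ± 0.06 SE, edgeR adjusted p = 5.462e-15). Sec24d, a coat subunit of the vesicles that carry procollagen, read 108 and 101 CPM in shBeclin1 against 27.5 and 23.2 CPM in shNT without GF (log2 fold 2.04 ± 0.08 SE, edgeR adjusted p = 9.454e-23). Fkbp10, a prolyl isomerase of the same compartment, had a log2 fold of 1.57 there (adjusted p = 1.611e-19) and of -0.93 at day 0 (adjusted p = 7.842e-07).

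Of the prolyl hydroxylation genes, 6 of 10 were higher and 1 lower in CM cells, and 6 higher and 1 lower without GF. P4ha2, a catalytic subunit of the enzyme that stabilises the triple helix, read 118 and 135 CPM in shBeclin1 against 35.5 and 35.1 CPM in shNT without GF (log2 fold 1.84 ± 0.08 SE, edgeR adjusted p = 2.259e-21). P4ha1, the other abundant subunit, was not called at day 10 (adjusted p = 0.5829 in CM cells and 0.05999 without GF, the second 0.000167 without shBeclin1 replicate 1) and was lower at day 0, at 99.8 and 101 CPM against 147 and 143 CPM (log2 fold -0.53 ± 0.09 SE, edgeR adjusted p = 0.0001636). P3h4, part of a complex that acts on collagen lysines in the endoplasmic reticulum, had a log2 fold of 2.04 without GF (adjusted p = 9.428e-21), and P3h2, a prolyl 3-hydroxylase active on type IV chains, of -2.10 (adjusted p = 2.287e-17). P3h2 shares 28.4% of its exon length with another annotated gene, so its counts are less certain. Of the 5 lysyl hydroxylation and glycosylation genes, 1 was higher and 3 lower in CM cells. Plod2, the telopeptide lysyl hydroxylase, read 554 and 568 CPM in shBeclin1 against 663 and 648 CPM in shNT without GF (log2 fold -0.23 ± 0.06 SE, edgeR adjusted p = 0.002233), and was not called in CM cells (adjusted p = 0.9477). Plod1 was lower in shBeclin1 in CM cells, with a log2 fold of -0.45 ± 0.07 SE (edgeR adjusted p = 3.493e-06).

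Of the 7 tested genes of propeptide cleavage, 5 were higher and 2 lower in CM cells, and 4 higher and 1 lower without GF. Adamts2, which removes the amino propeptide of fibrillar procollagens, read 32.3 and 37.3 CPM in shBeclin1 against 0.831 and 1.5 CPM in shNT in CM cells (log2 fold 4.95 ± 0.20 SE, edgeR adjusted p = 8.928e-22). In the culture without GF it read 31.2 and 26.6 CPM in shBeclin1 against 1.49 and 1.32 CPM in shNT (log2 fold 4.36 ± 0.20 SE, edgeR adjusted p = 2.373e-20). The day 0 shNT level was 1.53 and 1.5 CPM, so the gene stayed low in shNT. Of the 5 cross-linking genes, 3 were higher and 1 lower in CM cells, and 3 higher and 1 lower without GF. Bmp1, which removes the carboxy propeptide, was higher in shBeclin1 at day 4 (log2 fold 0.96, adjusted p = 1.181e-06), in CM cells (0.75, adjusted p = 4.449e-09) and without GF (0.63, adjusted p = 4.876e-07). Loxl2, a cross-linking oxidase that favours type IV collagen, read 313 and 323 CPM in shBeclin1 against 132 and 129 CPM in shNT in CM cells (log2 fold 1.29 ± 0.06 SE, edgeR adjusted p = 4.834e-19), and at day 0 it was lower, at 34.8 and 36.6 CPM against 69.6 and 71.04 CPM (log2 fold -0.98 ± 0.08 SE, edgeR adjusted p = 1.893e-11). Lox, the cross-linker of fibrillar collagen, read 3.47 and 5.9 CPM in shBeclin1 against 2.93 and 2.34 CPM in shNT in CM cells (log2 fold 0.82, adjusted p = 0.006251, lost without replicate 2 of shBeclin1, at 0.39, or of shNT, at 0.073) and was not called without GF (adjusted p = 0.4854).

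Of the 7 tested collagen receptor genes, 5 were higher and 2 lower in CM cells, and 4 higher and 1 lower without GF; of the 10 tested genes of degradation and its inhibitors, 4 were higher and 6 lower in CM cells, and 6 higher and 2 lower without GF. Itga1, the alpha subunit of a collagen-binding integrin with a preference for type IV, read 161 and 173 CPM in shBeclin1 against 54.1 and 55.6 CPM in shNT in CM cells (log2 fold 1.61 ± 0.08 SE, edgeR adjusted p = 1.83e-19). Without GF its values were 69.3 and 75.2 CPM in shBeclin1 against 12.9 and 11.3 CPM in shNT (log2 fold 2.58 ± 0.10 SE, edgeR adjusted p = 2.649e-23). Ddr2, a receptor tyrosine kinase for fibrillar collagen common in fibroblasts, went the other way. It read 6.56 and 6.2 CPM in shBeclin1 against 97.5 and 97.4 CPM in shNT in CM cells (log2 fold -3.93 ± 0.11 SE, edgeR adjusted p = 3.638e-26), and 39.3 and 33.2 CPM against 64.5 and 64.8 CPM without GF (log2 fold -0.84 ± 0.09 SE, edgeR adjusted p = 6.448e-10). Mmp2, a gelatinase, was higher in shBeclin1 in both day 10 cultures, by 0.99 in CM cells (adjusted p = 3.072e-15) and 1.34 without GF (adjusted p = 8.618e-19) in log2. Mmp14, a membrane-bound collagenase, fell by 0.43 in log2 in CM cells (adjusted p = 7.379e-07) and rose by 1.07 without GF (adjusted p = 4.326e-16), the same signs as Col6a1 and Col6a2. Timp2, an inhibitor of these proteinases, was higher by 0.99 in CM cells (adjusted p = 7.108e-13) and 1.50 without GF (adjusted p = 7.714e-18) in log2.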

How the data were processed

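RNA of 16 libraries was sequenced after rRNA depletion and stranded library preparation, per the labels' protocols, although the molecule tag reads polyA RNA. The values are raw whole-number counts per gene as deposited by the authors; per the submitters' processing notes the tools were Trimmomatic 0.36, Subread 1.5.1, featureCounts and SAMtools with build mm10, while aligner, annotation and strandedness of counting are not stated there. All value columns were assigned to a sample. Counts of 19141 of 54052 entries passed edgeR's filterByExpr (minimum count 10) and were fitted in edgeR 4.0.16 (R 4.3.3) with TMM scaling, 1 mean per group over all 16 libraries, robust quasi-likelihood F tests on 8 residual degrees of freedom and Benjamini-Hochberg adjustment over the 19141 genes; a call is an adjusted p under 0.05, and SE is the absolute log2 fold divided by the square root of F. Printed CPM are edgeR's, on TMM-scaled library sizes. Levels between genes are compared per kilobase of merged exons of GENCODE vM21, and ratios of few counts carry exact 95% counting intervals. The fit was tested on simulated data. DESeq2 1.42.0 served as an alternative. Tables and figures used pandas 2.3.3, scipy 1.17.1 and matplotlib 3.10.9. Promoter sequences came from RefSeq, which held an entry for 35 of the 44 members. The members and gene lists were chosen with earlier results of these data known. Genes named are Col1a1, Col3a1, the 3 most abundant members of each class, the 6 members of lowest adjusted p called in each knockdown comparison, and likewise 4 pathway genes each beside a fixed few. The other members are given by their range or highest level, Col19a1 also by its called folds, or named where a count is small. These, Creb3l1 and the single marker genes that are named were chosen after their values were seen.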

Additional observations from a re-analysis of the deposited data

Results flagged for a closer look

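A change of the knockdown effect between cultures, tested in the edgeR fit as a difference of log2 folds (shBeclin1 over shNT in one culture minus the same in another), singled out the named collagen chains below. Each value is that difference, at an adjusted p under 0.05 over all genes, and no explanation was weighed.

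Between day 0 and day 4 (day 4 minus day 0) the effect moved upward for Col13a1 by 2.85, Col4a2 by 1.97, Col11a2 by 1.72, Col4a1 by 1.50, Col27a1 by 1.20 and Col5a1 by 1.04, and downward for Col18a1, at -1.20, and Col9a2, at -1.06. The Col11a2 call is lost without replicate 1 of shNT or of shBeclin1 at day 0 (adjusted p = 0.0747 and 0.11) or at day 4 (0.0762 and 0.0509). The Col27a1 call is lost without shNT replicate 2 of day 0 (0.0618), and the Col9a2 call without shBeclin1 replicate 1 of day 0 (0.0586) or without replicate 1 of shNT or shBeclin1 at day 4 (0.136 and 0.109).

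Between day 4 and day 10 (CM minus day 4) the cartilage fibril chains Col11a2 and Col2a1 moved by -4.45 and -3.00, Col8a2 by -4.22, Col26a1 by -3.73, Col6a3 by -2.20, Col23a1 by -2.03, Col4a2 by -1.34, Col22a1 by -1.22, Col4a1 by -1.08 and Col13a1 by -0.63. Upward moves were 3.11 for Col9a2, 2.88 for Col4a6, 2.10 for Col4a5, 1.35 for Col18a1, 1.28 for Col14a1, 1.23 for Col9a1, 1.14 for Col1a1, 0.89 for Col16a1, 0.78 for Col5a2 and 0.36 for Col5a1. Leaving out shNT replicate 1 of day 4 ends the calls of Col13a1 (adjusted p = 0.122), Col14a1 (0.191), Col16a1 (0.078), Col1a1 (0.247), Col5a1 (0.0729) and Col6a3 (0.083). Leaving out shBeclin1 replicate 1 of day 4 ends those of Col13a1 (0.0509), Col14a1 (0.0771), Col5a1 (0.0572) and Col6a3 (0.327), and leaving out its replicate 2 those of Col14a1 (0.0811), Col16a1 (0.226) and Col1a1 (0.0825). Col5a1 and Col16a1 also lose it without shNT replicate 2 of day 4 (0.0693 and 0.206). Of the CM libraries, shNT replicate 1 decides Col14a1 (0.0839), Col16a1 (0.0749) and Col6a3 (0.066), shNT replicate 2 Col16a1 (0.0582), shBeclin1 replicate 1 Col13a1 (0.0551), and shBeclin1 replicate 2 Col14a1 (0.0632) and Col16a1 (0.104).

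Between the day 10 cultures (CM minus without GF) the effect was lower in CM cells for Col14a1 at -4.52, Col6a3 at -3.24, Col8a2 at -3.19, Col15a1 at -2.68, Col6a2 at -2.41, Col11a2 at -2.16, Col25a1 at -1.67, Col2a1 at -1.63, Col6a1 at -1.61, Col26a1 at -1.41, Col1a1 at -1.12, Col16a1 at -0.99, Col20a1 at -0.72, Col12a1 at -0.67, Col4a1 at -0.30 and Col5a1 at -0.28. It was higher for Col8a1 at 2.87, Col4a3 at 2.85, Col4a4 at 2.77, Col4a6 at 1.91, Col9a2 at 1.29, Col13a1 at 1.20, Col5a2 at 0.80, Col4a5 at 0.77, Col22a1 at 0.72, Col18a1 at 0.68 and Col3a1 at 0.47. The Col20a1 call is lost without any 1 of 6 of the 8 libraries (adjusted p from 0.0625 to 0.248) and with DESeq2 (0.0874). Col4a3 loses it without shBeclin1 replicate 2 of CM (0.146), without shNT replicate 1 of the culture without GF (0.0548) and with DESeq2 (0.082), Col4a4 without shBeclin1 replicate 1 of CM (0.081), and Col25a1 with DESeq2 (0.233).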

How the results depend on the processing

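Counts of called members stayed within 1.5 times the reported count under each alternative run: total-count scaling, no low-count filter, a strict filter of at least 1 CPM in 4 libraries, only the compared libraries in the fit, DESeq2, and a replicate block. Without 1 library in turn, called members ranged from 4 to 7 at day 0, were 10 in each case at day 4, and ranged from 29 to 32 in CM cells and from 27 to 28 without GF for the knockdown. For time they ranged from 26 to 30 in shBeclin1 and 25 to 27 in shNT (day 4 against day 0), 32 to 34 and 38 to 39 (CM against day 4), and 34 to 37 and 36 to 38 (without GF against day 4). For CM against without GF they ranged from 25 to 30 in shBeclin1 and 28 to 31 in shNT, and for the changes of knockdown effect from 6 to 9, 18 to 23 and 25 to 28. A left-out library leaves 1 in its group, which is then assumed to vary like the others. Same-numbered libraries did not deviate together (correlations from -0.02 to 0.02), so the replicate numbers name libraries only; with the replicate block the knockdown counts were 7, 12, 34 and 30 in place of 6, 11, 34 and 29. Total-count scaling shifted the median of all genes by over 0.1 in log2 only for steps in time: by -0.12 for day 4 against day 0 under both hairpins, by 0.16 in shBeclin1 and 0.20 in shNT for CM against day 4, and by 0.24 and 0.21 without GF. For the named genes the direction of a call never reversed in the alternatives run. Over all comparisons and runs, 8331 values of these genes kept their status, called or not called, 219 lost a call and 94 gained one. Many of them were named for a low adjusted p or a high level, so weaker members are less covered. With 2 libraries a group, members under about 1 CPM rest on few counts.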
